A study of Mus musculus with 12 samples.

Results

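The mouse antioxidant genes described here are 10 listed targets of the transcription factor NRF2 and enzymes of glutathione metabolism, *Gclc*, *Gclm*, *Gsr*, *Gpx2*, *Gsta4*, *Gstm1*, *Txnrd1*, *Srxn1*, *Nqo1* and *G6pdx*. The rule that lists them names genes and uses no measured value, although they were chosen with earlier results of these data known. They are 10 of the 47069 genes in the count table. Each was found by its Ensembl identifier, and all 10 had enough reads to be tested. RNA was sequenced from cells sorted out of liver cancer organoids, 3-dimensional cultures grown from tumors that diethylnitrosamine had induced in *Lgr5–DTR–GFP* mice. In these mice the *Lgr5* promoter drives both green fluorescent protein (GFP) and a receptor for diphtheria toxin. GFP therefore stands for LGR5 in the sort, which also removed dead cells and CD45+ leucocytes. All 4 groups share the strain C57BL/6, the genotype labelled LGR5-DTRGFP+ and the organoid origin. LGR5- and LGR5+ cells were each sequenced without treatment and after 5-FU, with 3 libraries per group. 5-FU (5-fluorouracil) is a pyrimidine analog that blocks thymidylate synthesis. The study's methods give the ages of the mice as ranges over all animals, which were injected from a few weeks of age and killed months after the last injection, and 1 concentration of 5-FU for organoid cultures. Which of these ages, doses and treatment times apply to the sequenced libraries, and whether the 3 libraries of a group came from separate cultures or tumors, is not given in the sources used here, so the *P* values measure only the spread between these libraries. The described organoid medium contains N-acetylcysteine, an antioxidant and a source of cysteine for glutathione, which all groups would share.

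NRF2, encoded by *Nfe2l2*, is held low in resting cells by KEAP1, which marks it for degradation through a CUL3 ubiquitin ligase. Oxidants and electrophiles modify KEAP1, NRF2 accumulates, pairs with a small MAF protein and binds antioxidant response elements (AREs) in the promoters of its targets. Its control is mostly at the protein level, which RNA sequencing does not measure. Among its targets, GCLC and GCLM form the enzyme that limits glutathione synthesis. GSR returns oxidized glutathione to its reduced form with NADPH, and GPX2 spends glutathione on peroxides. GSTA4 and GSTM1 join glutathione to lipid aldehydes and other electrophiles. TXNRD1 reduces thioredoxin, and sulfiredoxin (SRXN1) repairs overoxidized peroxiredoxins. NQO1 reduces quinones by a pair of electrons at a time, and G6PDX, the first enzyme of the pentose phosphate pathway, supplies NADPH. In liver the pathway serves detoxification, and many liver tumors keep it switched on.

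Each library held 13750591 to 19323514 counted reads, and levels are given as counts per 1000000 reads (CPM) after TMM scaling. *Lgr5* itself did not separate the sorted populations: untreated LGR5- libraries held 27.5, 23.0 and 36.0 CPM and untreated LGR5+ libraries 27.5, 23.3 and 26.2 CPM (log2 difference −0.17 ± 0.23 SE, edgeR adjusted *P* = 1.0), so the population names below are those of the sort. Hepatocyte markers were at or near 0 (8 genes summing to 0.660 to 3.0 CPM, 3 to 5 of them without a read), while 7 cholangiocyte markers summed to 2380 to 3110 CPM in untreated and 3420 to 11900 CPM in 5-FU-treated libraries. Of the 6 cholangiocyte markers tested, 2 were higher after 5-FU at an edgeR adjusted *P* under 0.05 in each population. Of these 6 estimates 5 were above 0 in LGR5+ and 4 in LGR5- cells, with median log2 fold changes of 0.64 and 0.54. After 5-FU the summed levels of 8 squamous markers (29.3 to 91.3 CPM untreated, 160 to 1370 CPM treated), 8 macrophage markers (40.6 to 92.1 and 101 to 184 CPM) and 6 erythroid markers (0.787 to 1.88 and 21.6 to 52.7 CPM) were also higher. All 8 squamous markers were higher at an edgeR adjusted *P* under 0.05 in both populations. Only 4 macrophage and 2 erythroid markers had enough reads to be tested, and 2 and 1 of them passed in each population. In treated libraries up to 3 of the 8 macrophage and 4 of the 6 erythroid markers had no read. The 7 alveolar type 2 markers summed to 3060 to 17500 CPM, with untreated LGR5- replicates 1 and 2 and untreated LGR5+ replicate 1 above the rest. Gene by gene, 5 of the 7 had a 5-FU estimate above 0 in each population, with medians of 0.88 in LGR5+ and 0.68 in LGR5- cells. In each population 2 of the 7 were higher at an edgeR adjusted *P* under 0.05. Endothelial markers (5 genes) summed to 1.67 to 4.06 CPM, with overlapping groups. Fibroblast markers (6 genes) summed to 48.2 to 50.2 CPM in untreated and 26.2 to 42.8 CPM in treated LGR5+ cells, and to 40.9 CPM or more in untreated and 43.1 to 60.8 CPM in treated LGR5- cells, which overlapped, so that they were lower after 5-FU without overlap in LGR5+ cells and lower there than in treated LGR5- cells. The part of these cell types in the results below was not tested, and in sorted bulk RNA more cells that express a gene cannot be told apart from more of its RNA per cell. Replicate 3 of the LGR5- cells stood apart in both treatments, with 6.93% and 6.44% mitochondrial reads against 1.47% to 3.08% elsewhere, and results that move most with it are given with and without it.

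The ARE core was searched as TGACNNNGC on both strands of RefSeq promoter windows (GRCm38.p6), each running from 250 bases before to 50 bases after a transcription start. A window was at hand for 7 of the 10 genes, and the core was found in 4 of them, *Gclm*, *Txnrd1*, *G6pdx* and *Srxn1*, or 57.1%. The core was found for 14% of all 27025 genes with a window, and for 18 of 94 (19.1%) of the other pathway genes described below. Counted by window, 4 of the 10 windows of these genes held it against 12.4% of all 32851. The stretches around these 4 matches are shown since they are where the shared regulator could bind, read 5′ to 3′ on the strand of the gene, with the core in capitals. All 4 lie on the strand opposite to the gene, so the capitals spell the reverse complement of the core.
*Gclm*, chr3:122245398-122245456, plus strand: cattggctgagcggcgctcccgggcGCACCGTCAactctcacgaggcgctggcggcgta
*Txnrd1*, chr10:82859089-82859147, plus strand: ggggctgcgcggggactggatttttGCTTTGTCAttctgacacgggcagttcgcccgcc
*G6pdx*, chrX:74428904-74428962, minus strand: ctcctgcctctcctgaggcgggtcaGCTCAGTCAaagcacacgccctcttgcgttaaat
*Srxn1*, chr2:152105542-152105570, plus strand: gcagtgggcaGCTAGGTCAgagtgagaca
The match begins 134 bases before the start in *Gclm*, 92 before it in *Txnrd1* (1 of its 3 windows) and 57 before it in *G6pdx*, and at transcribed base 29 in *Srxn1*. These starts are those of the RefSeq windows. In *Txnrd1* and *G6pdx* the match lies inside the span of the gene given below, which comes from another annotation. None of the 4 holds the AP-1 site TGACTCA within the core. The windows of *Gpx2*, *Gstm1* and *Nqo1* did not contain these letters, which says nothing of sites elsewhere. Factor binding was not measured, and a match is a description of the letters only.

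On GRCm38 (GENCODE M21) all 10 genes are protein coding. *Gclc* lies at chr9:77754535-77794485 and *Gsta4* on the same chromosome at chr9:78182774-78209349, *Gclm* at chr3:122245557-122270732, *Gstm1* at chr3:108012255-108017973, *Gsr* at chr8:33652523-33698163 and *Nqo1* at chr8:107388225-107403206. *Gpx2* lies at chr12:76792333-76795554, *Txnrd1* at chr10:82833951-82897712, *Srxn1* at chr2:152105516-152111376 and *G6pdx* at chrX:74409483-74429194. Counting by strand is not stated, and the exons of *G6pdx* share 418 bases (13.57% of its exon length) with *Ikbkg* on the opposite strand, so reads of the pair cannot be told apart there. *Gclm* likewise shares 296 bases (4.71%) with *Gm17494* on the opposite strand and 244 bases (3.88%) with the pseudogene *Gm6061* on its own. Of its 100-base stretches *Gstm1* shares 5.86% with genes including *Gstm3*, *Gpx2* 1.55% with its pseudogene *Gpx2-ps1* and *G6pdx* 0.19% with *G6pd2*. *Gclm* shares 2.44% with *Ppia* and pseudogenes, which are not its relatives, and the other 6 genes share none.

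The genes differed far more from one another than between groups. Per kilobase of exon, the median over 12 libraries was 168 CPM per kb for *Gsta4*, 164 for *Gstm1* and 140 for *Gpx2*, at the 96.7th percentile of the tested genes or above, and their ranges (108 to 357, 109 to 332 and 90.2 to 182 CPM per kb) overlapped. *Gsr* followed with a median of 46.3 CPM per kb (15.7 to 56.6), below every library's *Gpx2*. *G6pdx* came next (24.4, range 13.0 to 29.7), then *Txnrd1* (21.6, range 8.20 to 25.4), *Gclc* (6.12, range 3.62 to 8.93), *Gclm* (6.10, range 3.45 to 7.05) and *Srxn1* (3.65, range 2.28 to 7.29). From *Gsr* down to *Srxn1*, each gene's range overlapped that of its neighbour in this order. *Nqo1*, often used as the marker gene of NRF2 activity, was the lowest, at 0.177 to 0.858 CPM per kb with a median of 0.604, and only 18.8% of the tested genes lay below it. It was counted with 5 to 23 reads per library, and a count of 0 would allow up to 0.164 to 0.220 CPM, so counting error is a large share of its spread. These limits cover counting error only, because PCR copies were not marked.

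**Figure D1:**
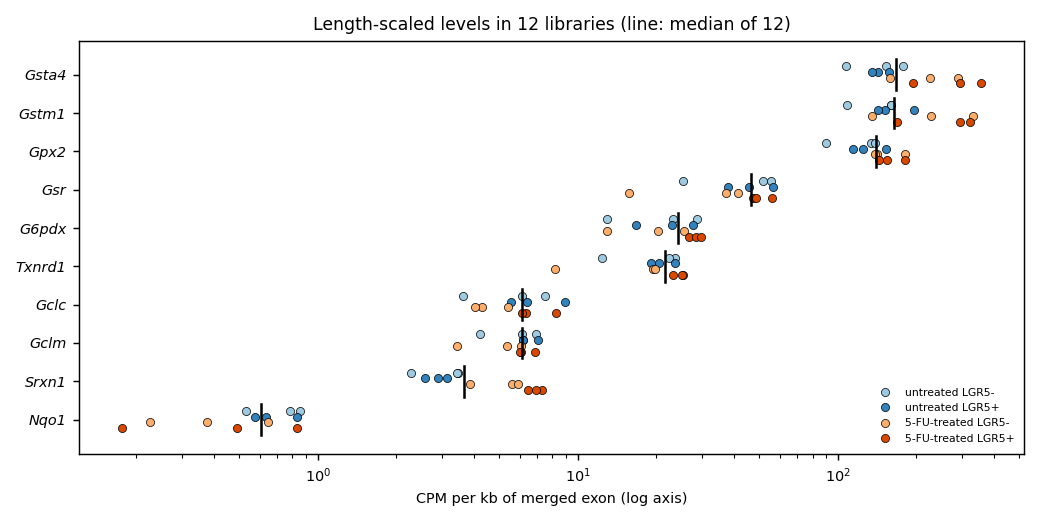
Length-scaled level (CPM per kb of merged exon, log axis) of each of the 10 genes in the 12 libraries, coloured by group, with the median of 12 as a line. The genes span from a median of 0.604 CPM per kb for Nqo1 to 168 for Gsta4, and the groups of a gene lie close together beside these distances.

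5-FU treatment raised 2 of the 10 genes in LGR5+ cells and 1 of them in LGR5- cells. In LGR5+ cells *Srxn1* rose 2.38-fold and *Gsta4* 1.94-fold, at an adjusted *P* under 0.05 in edgeR's quasi-likelihood test and none fell. Of all 16157 genes tested, 16.0% passed that threshold in LGR5+ cells, 9.66% of all genes upwards and 6.37% downwards, so 2 of 10 is close to the background. In LGR5- cells *Srxn1* rose 1.67-fold, against 15.4% of all genes called with 8.30% called upwards and 7.11% downwards. The study's methods name *P* under 0.05 and an absolute log fold change over 1.5, read here as an unadjusted edgeR *P* and the log2 scale. No gene of the 10 passed these thresholds, which 7.23% of all genes did in LGR5+ and 7.00% in LGR5- cells. The median log2 fold change of the 10 genes was 0.26 in LGR5+ and −0.17 in LGR5- cells, beside −0.02 and −0.05 over all genes. The 5-FU and untreated libraries did not overlap for 2 genes in LGR5+ cells (*Srxn1* and *Gsta4*, beside 42.3% of all genes in either direction) and for 2 in LGR5- cells (*Srxn1* and *Gpx2*, beside 27.1%).

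**Figure D2:**
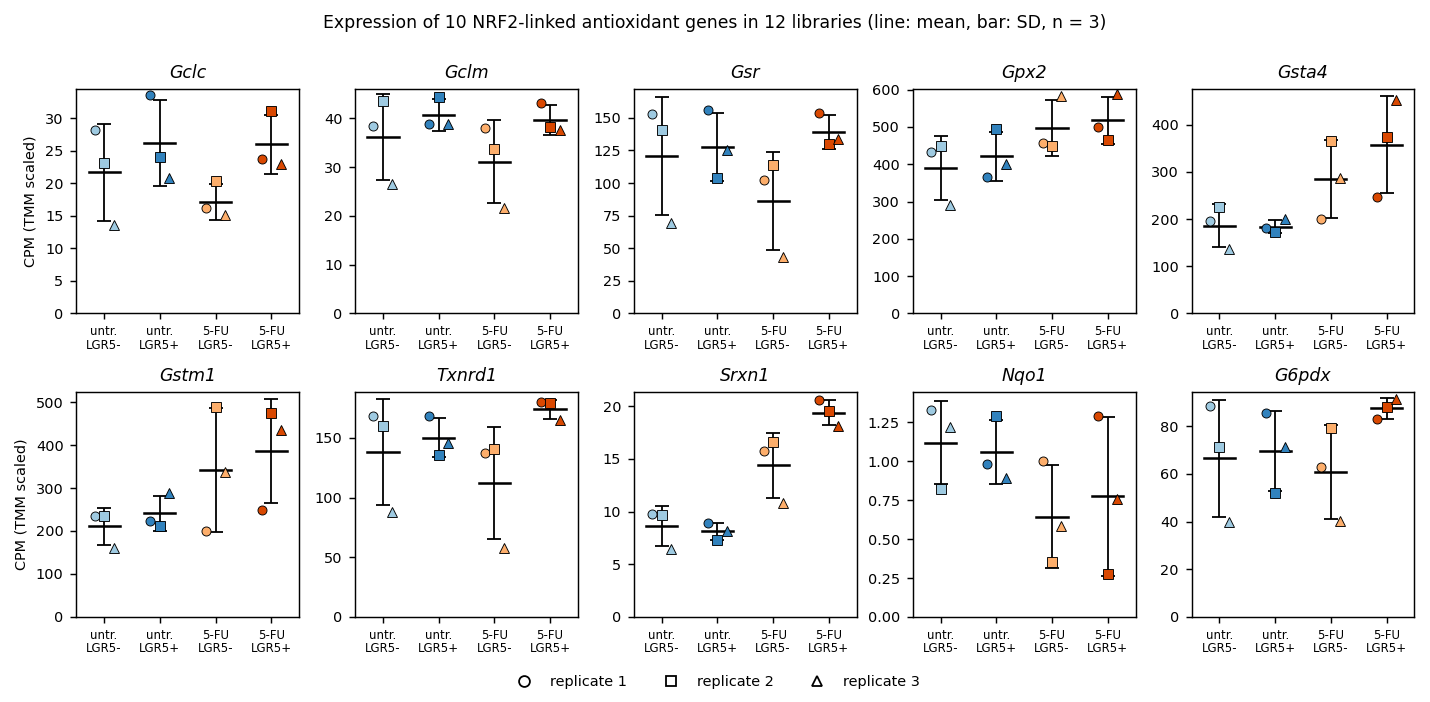
CPM of each gene in every library by group, with replicate 1 as a circle, 2 as a square and 3 as a triangle, and the group mean with its SD (n = 3). Srxn1 is higher in all 6 treated libraries than in all 6 untreated ones, Gsta4 and Gstm1 are high in treated replicates 2 and 3 and lower in replicate 1, and replicate 3 of LGR5- cells is the lowest point of many panels.

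*Srxn1* was the member with the clearest response. In LGR5+ cells it held 8.89, 7.30 and 8.18 CPM untreated and 20.6, 19.5 and 18.1 CPM after 5-FU. In LGR5- cells it held 9.75, 9.70 and 6.43 CPM untreated and 15.7, 16.6 and 10.8 CPM after 5-FU. Every treated library lay above every untreated one, and the treated LGR5+ libraries lay above the treated LGR5- libraries. The log2 fold change was 1.25 ± 0.22 (SE) in LGR5+ cells (edgeR adjusted *P* = 0.0013) and 0.74 ± 0.22 in LGR5- cells (adjusted *P* = 0.0322). The call in LGR5+ cells held in all 6 fits that left out 1 library, with an edgeR adjusted *P* of at most 0.00926. The call in LGR5- cells was lost without untreated replicate 1 (0.0542), 2 (0.0541) or 3 (0.0726) and without 5-FU replicate 1 (0.085) or 2 (0.125) and in a fit of only the libraries compared (0.134). It held without 5-FU replicate 3 (0.0112) and without replicate 3 of both treatments (0.015). *Txnrd1*, the other member of the thioredoxin system, did not pass the test. It held 168, 136 and 146 CPM in untreated and 180, 179 and 165 CPM in 5-FU-treated LGR5+ cells, with groups that overlapped (log2 fold change 0.22 ± 0.30, edgeR adjusted *P* = 0.674). LGR5- cells held 168, 160 and 87.7 CPM untreated and 137, 141 and 58.1 CPM after 5-FU (−0.30 ± 0.30, adjusted *P* = 0.556). Replicate 3 was the lowest library of both LGR5- groups, and the interval of the change, −0.94 to 0.34, covers both a fall and a modest rise.

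The glutathione transferases were highest in treated replicates 2 and 3 of each population. *Gsta4*, which detoxifies the lipid peroxidation product 4-hydroxynonenal, held 181, 172 and 200 CPM in untreated LGR5+ cells and 247, 373 and 452 CPM after 5-FU. All 3 treated libraries lay above the untreated ones (log2 fold change 0.95 ± 0.27, edgeR adjusted *P* = 0.0243). The call was lost when any library but 5-FU replicate 1 was left out: without untreated replicate 1, 2 or 3 the adjusted *P* was 0.0724, 0.0914 and 0.0644, and without 5-FU replicate 2 or 3 it was 0.0848 and 0.136. Without 5-FU replicate 1 the log2 fold change was 1.17 (edgeR adjusted *P* = 0.0096). In LGR5- cells *Gsta4* held 195, 225 and 137 CPM untreated and 201, 365 and 286 CPM after 5-FU, where replicate 1 lay within the untreated range (0.61 ± 0.27, adjusted *P* = 0.143). *Gstm1*, a transferase of the mu class, behaved alike without passing the test. It held 224, 211 and 289 CPM in untreated and 249, 475 and 434 CPM in treated LGR5+ cells (0.68 ± 0.31, edgeR adjusted *P* = 0.16). In LGR5- cells it held 235, 236 and 160 CPM untreated and 199, 489 and 337 CPM after 5-FU (0.70 ± 0.31, adjusted *P* = 0.155). Treated replicate 1 lay within the untreated range in both populations, and without it the log2 fold change was 0.92 (adjusted *P* = 0.0689) in LGR5+ and 0.97 (adjusted *P* = 0.0399) in LGR5- cells.

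The genes of glutathione synthesis did not pass the test in either population. *Gclc*, the catalytic subunit, held 33.6, 24.1 and 20.9 CPM in untreated and 23.8, 31.2 and 23.0 CPM in 5-FU-treated LGR5+ cells. The log2 fold change was −0.01 ± 0.26 (edgeR adjusted *P* = 0.98), with an interval of −0.56 to 0.54. LGR5- cells held 28.3, 23.1 and 13.6 CPM untreated and 16.2, 20.4 and 15.2 CPM treated (−0.33 ± 0.26, adjusted *P* = 0.444). *Gclm*, the modifier subunit, held 38.8, 44.4 and 38.8 CPM and then 43.2, 38.3 and 37.7 CPM in LGR5+ cells (−0.03 ± 0.22, edgeR adjusted *P* = 0.938). In LGR5- cells *Gclm* held 38.4, 43.5 and 26.5 CPM untreated and 38.0, 33.7 and 21.7 CPM treated (−0.21 ± 0.22, adjusted *P* = 0.57). The 95% interval of *Gclm* in LGR5+ cells, −0.50 to 0.43, leaves out a change as large as that of *Srxn1*.

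*Gsr* and *Gpx2*, which recycle and spend glutathione, did not pass the test either. *Gsr* held 156, 104 and 125 CPM in untreated and 154, 130 and 134 CPM in treated LGR5+ cells (0.12 ± 0.33, edgeR adjusted *P* = 0.849). LGR5- cells held 153, 141 and 69.5 CPM untreated and 102, 114 and 43.3 CPM treated (−0.49 ± 0.33, adjusted *P* = 0.36), with replicate 3 lowest in both. *Gpx2*, the peroxidase of gut and liver epithelium, held 366, 494 and 402 CPM in untreated and 500, 465 and 588 CPM in treated LGR5+ cells (0.30 ± 0.22, edgeR adjusted *P* = 0.399). Its LGR5- libraries held 432, 448 and 291 CPM and then 458, 448 and 583 CPM. These LGR5- groups met at 448 CPM without overlapping before rounding (0.35 ± 0.22, adjusted *P* = 0.322). Without replicate 3 of both treatments, which held the lowest untreated and the highest treated level, the log2 fold change was 0.04 (adjusted *P* = 0.904).

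*G6pdx* and *Nqo1* closed the list without a call. *G6pdx* held 85.4, 51.9 and 71.1 CPM in untreated and 82.8, 88.0 and 91.4 CPM in treated LGR5+ cells (0.33 ± 0.29, edgeR adjusted *P* = 0.485). Its LGR5- libraries held 88.4, 71.3 and 39.9 CPM untreated and 62.8, 79.1 and 40.1 CPM treated (−0.13 ± 0.29, adjusted *P* = 0.806). *Nqo1* held 0.981, 1.29 and 0.895 CPM in untreated and 1.29, 0.275 and 0.759 CPM in treated LGR5+ cells, and 1.33, 0.822 and 1.22 CPM in untreated and 0.999, 0.351 and 0.586 CPM in treated LGR5- cells. Its log2 fold changes, −0.44 ± 0.56 and −0.79 ± 0.57 (edgeR adjusted *P* = 0.65 and 0.394), had intervals reaching from −1.63 to 0.75 and from −2.0 to 0.42, so a fall of 1 on the log2 scale lies inside both.

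Replicate 3 of LGR5- cells was the lowest library of its group for 9 of the 10 genes in untreated cells (all but *Nqo1*) and for 6 in 5-FU-treated cells (*Gclc*, *Gclm*, *Gsr*, *Txnrd1*, *Srxn1* and *G6pdx*). Treated replicate 1 was the lowest for *Gsta4* and *Gstm1* in both populations. With replicate 3 left out of both LGR5- groups, *Gclc*, *Gclm*, *Gsr* and *Txnrd1* did not overlap and were lower after 5-FU, beside 29.9% of all genes that were lower without overlap in those 4 libraries, and *Gpx2* and *Srxn1* did not overlap and were higher, beside 30%. The log2 fold changes of the 4 lower genes were then −0.49, −0.19, −0.45 and −0.23, none of them called (edgeR adjusted *P* from 0.117 to 0.442), and *Srxn1* alone of the 10 was.

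**Figure D3:**
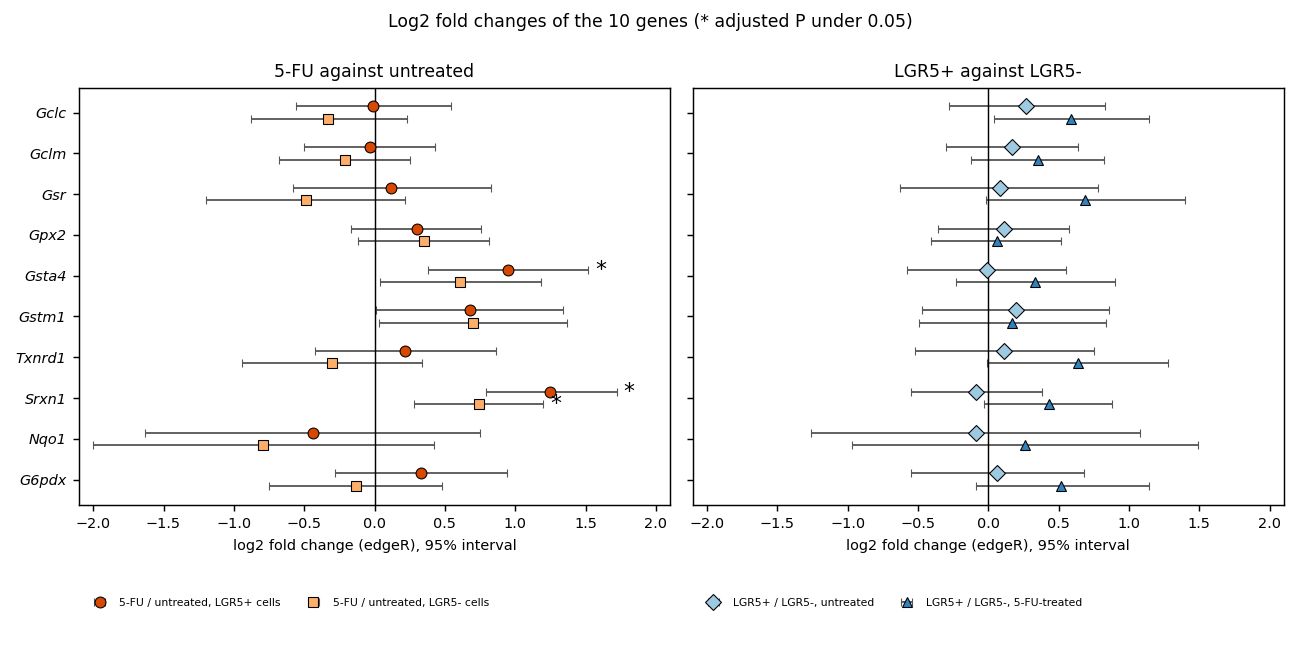
Log2 fold change of each gene with its 95% interval from the edgeR fit, for 5-FU against untreated cells in each population (left) and for LGR5+ against LGR5- cells at each treatment (right). Stars mark an adjusted P under 0.05, which Srxn1 reached in both populations and Gsta4 in LGR5+ cells, and after 5-FU all 10 estimates lie above 0 in LGR5+ against LGR5- cells without a star, although that of Gpx2 falls to −0.04 under scaling by library size only.

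After 5-FU all 10 genes had a higher estimate in LGR5+ than in LGR5- cells, and none passed the test. The log2 differences ran from 0.06 (*Gpx2*) to 0.69 (*Gsr*) with a median of 0.39, beside 0.03 over all genes. The shared direction did not hold under every setting, since *Gpx2* was −0.04 under scaling by library size only and −0.02 with only the libraries compared, and *Gpx2*, *Gstm1* and *Nqo1* each turned in some fit that left out 1 library (lowest −0.03, −0.09 and −0.32). Cell type markers differed between the same libraries. The 8 squamous markers summed to 765, 1370 and 1180 CPM in treated LGR5+ and 338, 463 and 160 CPM in treated LGR5- cells, with none of the 8 overlapping and none called (median log2 difference 1.94). The 7 cholangiocyte markers summed to 7990, 10200 and 11900 CPM against 5110, 7780 and 3420 CPM. Their part in the differences of the 10 genes was not tested. Of all genes 0% were called at an adjusted *P* under 0.05 and 13.0% had an unadjusted *P* under 0.05, as 1 of the 10 genes had (*Gclc*, 0.0387). The 13.0% are 2095 genes, and this number was 896 without treated LGR5- replicate 3 and 3049 without treated LGR5- replicate 2. Of the 10 genes 0 and 5 had an unadjusted edgeR *P* under 0.05 in these 2 fits. The populations did not overlap for *Gclc*, *Gsr*, *Txnrd1*, *Srxn1* and *G6pdx*, each higher in LGR5+ cells, beside 24.3% of all genes in either direction and 14.2% higher in LGR5+ cells. *Gsr* held 154, 130 and 134 CPM in treated LGR5+ cells against 102, 114 and 43.3 CPM in treated LGR5- cells (0.69 ± 0.33, edgeR adjusted *P* = 0.389). *Txnrd1* showed 0.64 ± 0.30 (adjusted *P* = 0.386), *Gclc* 0.59 ± 0.26 (0.373), *G6pdx* 0.52 ± 0.29 (0.421) and *Srxn1* 0.43 ± 0.21 (0.396). These values rest in part on replicate 3 of LGR5- cells. Without that replicate in both treatments the log2 differences were 0.37 for *Gsr*, 0.32 for *Txnrd1*, 0.50 for *Gclc*, 0.30 for *G6pdx*, 0.26 for *Srxn1* and 0.15 for *Gclm*. The populations then did not overlap for 6 genes, the same 5 as with all libraries and *Gpx2*, beside 17.2% of all genes that were higher in LGR5+ cells. The replicate numbers pair these 6 libraries, and with replicate block in a fit of these libraries alone, chosen after seeing the data, 451 genes were called but again none of the 10, with the smallest edgeR adjusted *P* at 0.0628 for *Gclc*, 0.0803 for *Gsr* and 0.0841 for *Txnrd1*.

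In untreated cells the 10 genes showed no difference between the populations that passed the test. The log2 differences lay between −0.09 (*Srxn1*) and 0.27 (*Gclc*), all with an edgeR adjusted *P* of 1.0, and the smallest unadjusted *P* was 0.304. No gene of the 10 separated the populations without overlap, beside 5.29% of all genes. Without replicate 3 of LGR5- cells *Srxn1* did, lower in LGR5+ cells (−0.26, adjusted *P* = 0.847), beside 10.8% of all genes, and the difference of *Gclc* was 0.03. With all libraries 0% of all genes were called and 1.32% (214 genes) had an unadjusted *P* under 0.05. That number was 151 to 542 with 1 library left out and 839 without replicate 3 of both LGR5- groups. In each of these edgeR fits 0 genes were called and 0 of the 10 had an unadjusted *P* under 0.05. The intervals of the 9 genes other than *Nqo1* stayed within −0.63 and 0.86.

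The response to 5-FU was compared between the populations as an interaction. It was positive, that is higher in LGR5+ cells, for 8 of the 10 genes, with a median log2 difference of 0.34 beside 0.04 over all genes. None passed the test: every edgeR adjusted *P* was 1.0, the smallest unadjusted *P* was 0.114 (*Srxn1*, 0.51 ± 0.31), and 0% of all genes were called, with 254 (1.57%) at an unadjusted *P* under 0.05. Without replicate 3 of both LGR5- groups 1255 genes, 3 of the 10 among them, had an unadjusted edgeR *P* under 0.05 for the interaction, and again 0 were called. *Gsta4*, called only in LGR5+ cells, had an interaction of 0.34 ± 0.37 with all libraries. The comparisons draw on the same 4 groups, and are not independent of one another.

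The rest of the pathway was followed in 10 lists that hold 106 further genes, of which 97 were tested. In LGR5+ cells 22 of the 97 rose and 10 fell after 5-FU, and in LGR5- cells 18 rose and 8 fell, with median log2 fold changes of 0.11 and 0.06. Over all genes 9.66% rose and 6.37% fell in LGR5+ cells and 8.30% rose and 7.11% fell in LGR5- cells, with medians of −0.02 and −0.05, and the counts of each list stand beside these shares. The lists below include the 10 genes where they belong. Members of a list are not independent, the lists were chosen with earlier results of these data known, and no list was tested as a set.

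Among 10 regulators of NRF2, 3 rose in LGR5+ cells and none was called in LGR5- cells, where 9.66% and 8.30% of all genes rose. *Nfe2l2*, which encodes NRF2, held 151, 136 and 160 CPM in untreated and 258, 314 and 299 CPM in treated LGR5+ cells, without overlap (0.96 ± 0.21, edgeR adjusted *P* = 0.00557). In LGR5- cells it held 140, 168 and 122 CPM and then 197, 252 and 150 CPM, which overlapped (0.48 ± 0.21, adjusted *P* = 0.141, and 0.0344 without treated replicate 3). The difference between these responses was 0.48 ± 0.29 and did not pass the test (adjusted *P* = 1.0). *Sqstm1*, whose product p62 binds KEAP1, rose with 166, 165 and 189 CPM untreated and 311, 327 and 337 CPM treated in LGR5+ cells (0.91 ± 0.26, edgeR adjusted *P* = 0.0272). With 1 library left out this call held only without treated replicate 1, and the adjusted *P* was 0.0681 to 0.0967 without any of the other 5. In LGR5- cells *Sqstm1* changed by 0.42 ± 0.26 (0.312), and by 0.63 (0.0212) without replicate 3 of both treatments. The small MAF partner *Mafk* rose in LGR5+ cells (0.80 ± 0.26, adjusted *P* = 0.0469), a call lost under scaling by library size only (0.0852). It held only without untreated replicate 1 among the fits leaving out 1 library, with 0.0824 to 0.178 in the other 5. *Keap1*, at 40.2, 39.7 and 47.7 CPM untreated and 33.0, 33.3 and 28.3 CPM treated in LGR5+ cells, did not pass the test (−0.43 ± 0.22, adjusted *P* = 0.21) although the groups did not overlap. *Bach1*, a repressor at AREs, showed −0.16 ± 0.30 in both populations.

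**Figure D4:**
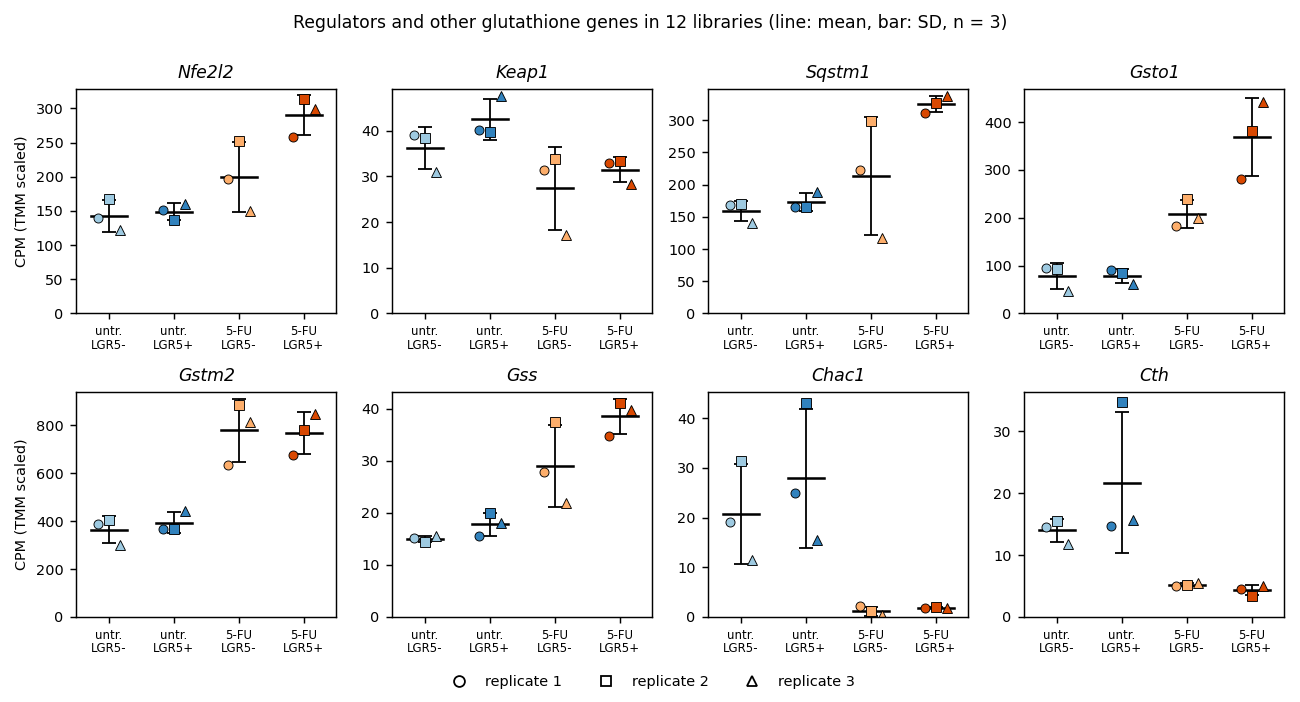
CPM of 8 genes around the 10 in every library by group, drawn as in the plot of the 10 genes (mean and SD, n = 3). Nfe2l2 and Sqstm1 stand higher in treated LGR5+ cells, Gsto1, Gstm2 and Gss are higher and Chac1 and Cth lower after 5-FU in both populations.

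The enzymes that make and break glutathione had calls in both directions and mostly lower estimates. Of 13 genes for cystine uptake, synthesis and breakdown, 3 rose and 4 fell in LGR5+ cells and 2 rose and 3 fell in LGR5- cells. Only 3 of the 13 estimates were above 0 in each population, with medians of −0.50 and −0.33 against −0.02 and −0.05 over all genes. *Chac1*, which degrades glutathione, fell from 25.0, 43.1 and 15.5 CPM to 1.80, 1.92 and 1.81 CPM in LGR5+ cells (−3.91 ± 0.52, edgeR adjusted *P* = 0.000193) and by a like amount in LGR5- cells (−4.07 ± 0.54, adjusted *P* = 0.000282). *Cth*, which makes cysteine from cystathionine, fell in both (−2.32 ± 0.31 and −1.43 ± 0.30, adjusted *P* = 0.000153 and 0.00558). *Gss*, which acts after GCLC and GCLM to finish glutathione, rose from 15.6, 19.9 and 18.0 CPM to 34.8, 41.1 and 39.7 CPM in LGR5+ cells (1.11 ± 0.19, adjusted *P* = 0.00135) and in LGR5- cells (0.95 ± 0.20, adjusted *P* = 0.00476). *Ggt6*, of the glutathione-cleaving gamma-glutamyltransferase family, rose in both (1.45 ± 0.30 and 1.67 ± 0.31). *Slc7a11*, the cystine transporter and a well-known NRF2 target, was not called (−0.57 ± 0.30 and −0.06 ± 0.30, adjusted *P* = 0.216 and 0.923). In LGR5- cells it was −0.45 (0.337) without replicate 3 of both treatments.

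The glutathione transferases were the longest list. Of 23 tested, 8 rose (*Gsta4* among them) and 1 fell in LGR5+ cells and 6 rose and 1 fell in LGR5- cells, beside 9.66% and 8.30% of all genes that rose. The list's median log2 fold changes were 0.39 and 0.61, against −0.02 and −0.05 over all genes. *Gsto1*, the omega-class transferase, rose from 89.9, 84.2 and 62.0 CPM to 282, 382 and 443 CPM in LGR5+ cells (2.23 ± 0.28, edgeR adjusted *P* = 8e-05). In LGR5- cells it rose from 94.7, 92.3 and 46.9 CPM to 183, 240 and 199 CPM (1.41 ± 0.27, adjusted *P* = 0.003), and the difference between the responses, 0.82 ± 0.37, did not pass the test (adjusted *P* = 1.0). *Gstm2*, a mu-class relative of *Gstm1*, rose in both (0.97 ± 0.21 and 1.09 ± 0.21, adjusted *P* = 0.00513 and 0.00296). *Gsta2*, of the alpha class of *Gsta4*, rose at low levels, from 0.577, 1.23 and 0.597 CPM to 3.26, 4.07 and 4.85 CPM in LGR5+ cells (2.33 ± 0.43), although reads of near-identical alpha-class relatives may be split among them. The membrane-bound *Mgst2* rose in both (1.10 ± 0.27 and 1.44 ± 0.28), with a call in LGR5+ cells that was lost without untreated replicate 1 (0.0563) or 3 (0.0644) or treated replicate 3 (0.0536).

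Of 10 peroxidases, reductase and glutaredoxins, 4 rose in each population and none fell, where 9.66% of all genes rose in LGR5+ and 8.30% in LGR5- cells. They were *Gpx1*, *Gpx3*, *Gpx8* and *Glrx3* in both. The secreted peroxidase *Gpx3* rose by 1.53 ± 0.22 and 1.67 ± 0.23 on the log2 scale and the iron-sulfur cluster protein *Glrx3* by 1.30 ± 0.21 and 0.99 ± 0.21, in LGR5+ and LGR5- cells. The main cytosolic peroxidase *Gpx1* rose from 762, 848 and 632 CPM to 1320, 1280 and 2020 CPM in LGR5+ cells (1.04 ± 0.25, edgeR adjusted *P* = 0.0116). Its call was lost without untreated (0.0677) or treated replicate 3 (0.0763). In LGR5- cells *Gpx1* (0.85 ± 0.25, adjusted *P* = 0.0341) was called only without treated replicate 1 among the fits leaving out 1 library (0.0654 to 0.091 in the others), and without replicate 3 of both treatments it was 0.53 (0.141). *Gpx8*, of the endoplasmic reticulum, rose by 0.79 ± 0.23 and 0.94 ± 0.23, and in LGR5+ cells its call held only without treated replicate 1 (0.0571 to 0.16 in the others). In LGR5- cells *Gpx8* was 0.59 (0.0529) without replicate 3 of both treatments. *Gpx4*, which protects membrane lipids, showed 0.06 ± 0.21 in both populations and turned to −0.04 in LGR5+ cells under scaling by library size only.

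The thioredoxin system showed no common direction. Of 13 genes, 1 rose (*Srxn1*) and 2 fell in LGR5+ cells, and 2 rose (*Srxn1* and *Prdx5*) and 2 fell in LGR5- cells. The endoplasmic reticulum peroxiredoxin *Prdx4* fell in both (−1.32 ± 0.26 and −1.23 ± 0.26, edgeR adjusted *P* = 0.0031 and 0.00562), as did the mitochondrial reductase *Txnrd2* (−0.88 ± 0.24 and −0.91 ± 0.24, adjusted *P* = 0.0227 and 0.0204). With 1 library left out, *Txnrd2* was called in LGR5+ cells only without untreated replicate 2 (0.0547 to 0.11 in the other 5 fits) and in LGR5- cells only without untreated replicate 3 or treated replicate 2 (0.059 to 0.0872 in the others). *Prdx5* in LGR5- cells (0.67 ± 0.19, adjusted *P* = 0.0261) was called only without untreated replicate 2 or treated replicate 3 (0.0526 to 0.107 in the others), and without replicate 3 of both treatments it was 0.56 (0.0596). Thioredoxin itself, *Txn1*, was not called (−0.38 ± 0.21 and −0.31 ± 0.21), and in LGR5- cells it was −0.57 (adjusted *P* = 0.0504) without replicate 3 of both treatments.

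The last lists cover NADPH supply and quinone or carbonyl detoxification. Of 11 genes of NADPH supply and the pentose phosphate pathway, none rose, 1 fell in LGR5+ cells and 2 fell in LGR5- cells. Transketolase, *Tkt*, fell in both (−1.27 ± 0.34 and −1.5 ± 0.34, edgeR adjusted *P* = 0.0193 and 0.00877) and the mitochondrial *Idh2* in LGR5- cells (−1.03 ± 0.26, adjusted *P* = 0.014). In LGR5+ cells the *Tkt* call was lost without untreated replicate 1 (0.0613) or 3 (0.0578) or treated replicate 2 (0.0878) or 3 (0.105), and in LGR5- cells the *Idh2* call was lost without untreated replicate 1 (0.0769) or treated replicate 3 (0.0564). Of 11 quinone, carbonyl and conjugation enzymes, 4 rose in LGR5+ and 3 in LGR5- cells and none fell, beside 9.66% and 8.30% of all genes that rose. The epoxide hydrolase *Ephx1* rose from 332, 414 and 422 CPM to 1160, 1400 and 1740 CPM in LGR5+ cells (1.88 ± 0.23, adjusted *P* = 7.51e-05) and from 308, 291 and 318 CPM to 868, 1210 and 802 CPM in LGR5- cells (1.65 ± 0.23, adjusted *P* = 0.000305). *Osgin1*, an oxidative stress-induced growth inhibitor, rose in both (2.25 ± 0.29 and 2.09 ± 0.29), and the aldo-keto reductase *Akr1b8* rose in both (0.99 ± 0.22 and 0.75 ± 0.22, edgeR adjusted *P* = 0.00741 and 0.034). In LGR5- cells the *Akr1b8* call held only without untreated replicate 2 or treated replicate 3 (0.0617 to 0.121 in the others).

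**Figure D5:**
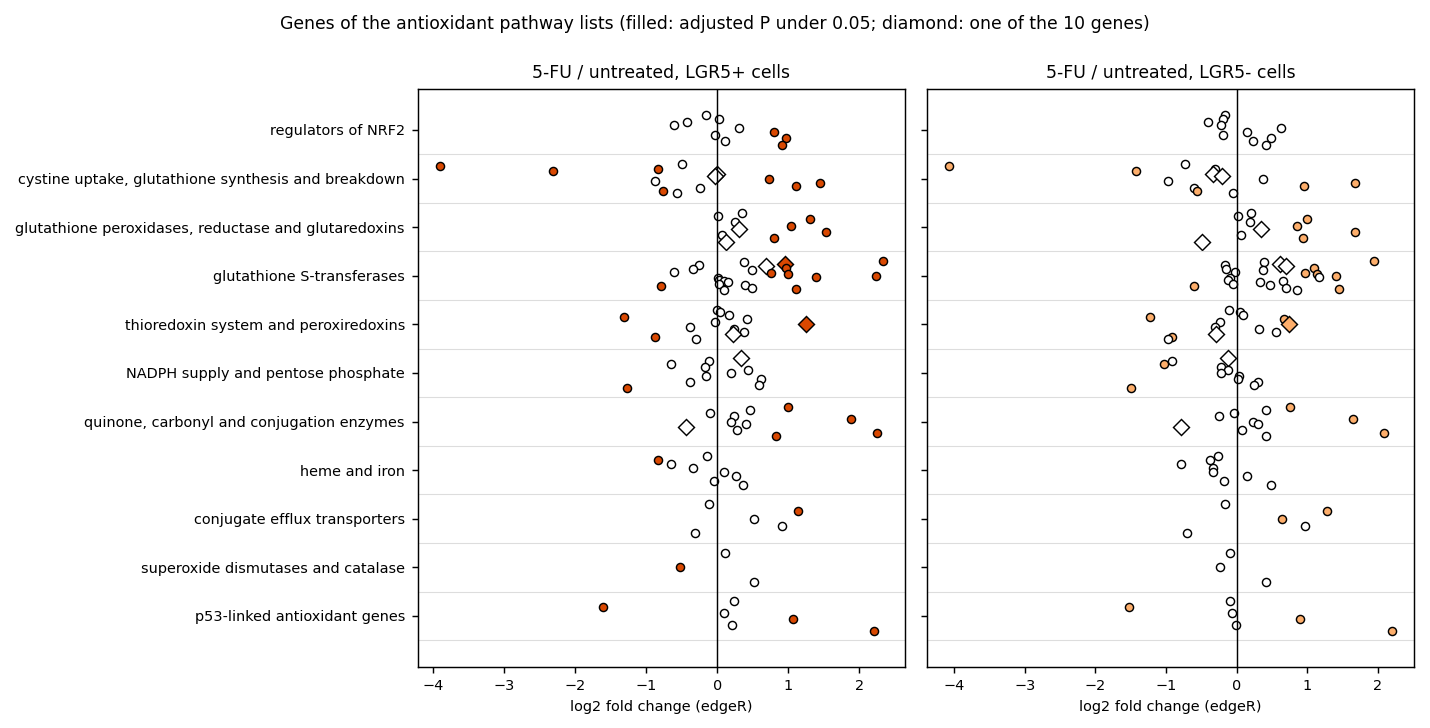
Log2 fold change after 5-FU of every tested gene of the 11 antioxidant lists in LGR5+ cells (left) and LGR5- cells (right), with filled symbols for an adjusted P under 0.05 and diamonds for the 10 genes. The transferases and the quinone and carbonyl enzymes have most of their filled symbols above 0, the glutathione synthesis and breakdown list has them on both sides, and most diamonds are open.

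The named calls differed in how far they held with 1 library left out. Such a fit has fewer libraries, and over all genes 1373 to 2488 were then called in LGR5+ cells against 2590 with all libraries. In LGR5+ cells 29 named genes of the lists, the 10 included, were called, and 16 of them were called in all 6 fits that left out 1 library. In LGR5- cells 26 were called and 16 of them in all 6 such fits. In LGR5- cells 11 of the 26 were also lost under some other setting, most often with only the libraries compared. *Nfe2l2*, *Chac1*, *Cth*, *Gss*, *Ggt6*, *Gsto1*, *Gstm2*, *Gsta2*, *Gpx3*, *Glrx3*, *Prdx4*, *Ephx1*, *Osgin1* and *Srxn1* were among the 16 in LGR5+ cells.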

How the data were processed

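RNA of sorted cells was amplified with a SMART-Seq kit, which does not mark strand, and sequenced as paired ends. The authors deposited 1 table of whole-number read counts per Ensembl gene, without normalization. The submitters' processing notes name HISAT2, HISAT, TopHat2, HTSeq and the build mm8, with no versions or roles. The strand setting of the counting is not given in the sources used here. Of the identifiers, 46488 matched a symbol in GENCODE M21, and gene positions describe that annotation.

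Counts were filtered by filterByExpr (16157 genes), scaled by TMM and fitted on 4 group means with edgeR 4.0.16 (glmQLFit, robust) in R 4.3.3. Contrasts were tested with glmQLFTest, adjusted by Benjamini-Hochberg over all tested genes and called under 0.05. The biological coefficient of variation was 26.6%. An SE is the log2 fold change divided by the square root of F, and 95% intervals use the fit's degrees of freedom. The script was tested on simulated data. The members and lists were chosen with earlier results of these data known. Text names all 10 genes, *Lgr5*, 7 fixed pathway genes and up to 3 called genes per list and 5-FU comparison with the smallest adjusted *P*. No library was a copy of another (chi-square per degree of freedom 16.7 or more within groups). Alternatives were the filter, the scaling, DESeq2 1.42.0, the libraries fitted, the replicate block and each library left out. Libraries with the same replicate number deviated together in 5-FU-treated LGR5+ and LGR5- cells (*r* = 0.571, 0.217 and 0.304 across genes), so these numbers were taken as pairs.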

Additional observations from a re-analysis of the deposited data

How the results depend on the processing

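In LGR5+ cells the number of the 10 genes called after 5-FU was 2 under every setting that kept all libraries and 1 to 2 with 1 library left out. In LGR5- cells it was 1, but 0 with only the libraries compared and 0 to 1 with 1 library left out. Over all genes, 4045 were called in LGR5+ cells and 1282 in LGR5- cells with only the libraries compared, against 2590 and 2489, and 1373 to 2488 and 1562 to 3418 with 1 library left out. Between the treated populations 0 genes were called, but 11 without a filter, 82 by DESeq2 and 451 with only the libraries compared and replicate block. The cause of these shifts was not tested. The block fitted on all 12 libraries changed no call of the 10 genes. Between untreated and treated libraries of the same number *r* was −0.085, −0.168 and 0.018 in LGR5+ cells. In LGR5- cells it was 0.055, 0.282 and 0.425, beside −0.377 to 0.307 between different numbers. Whether the numbers pair libraries there is not settled. Between the untreated populations the same numbers gave 0.481, −0.119 and 0.223.

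No reversal concerned a called value. Under replicate block *Gclc* in LGR5+ cells went to 0.00 and the interaction of *Gstm1* to 0.01. Scaling by library size only, which moved the median of all genes to −0.10 in LGR5+ cells, gave 0.00 for *Hmox1*, −0.04 for *Gpx4*, 0.02 for *Gsta4* between untreated populations and −0.04 for *Gpx2* between treated ones. *Gsta4* was 0.01 there without a filter, and *Gpx2* −0.02 with only the libraries compared and −0.01 with the block added. Without replicate 3 of both LGR5- groups the 5-FU change in LGR5- cells was 0.22 for *Bach1* and −0.04 for *Gpx4*, the untreated difference −0.01 for *Gclm*, −0.20 for *Gsr*, −0.06 for *Gpx2*, −0.13 for *Txnrd1* and −0.20 for *G6pdx*, and the interaction 0.25 for *Gpx2* and 0.13 for *Gstm1*.

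With 1 library left out, these changed sign. After 5-FU in LGR5+ cells *Gclc* ran from −0.16 to 0.21, *Gclm* −0.09 to 0.03, *Gsr* −0.01 to 0.29, *Bach1* −0.37 to 0.07, *Hmox1* −0.18 to 0.24 and *Gpx4* −0.13 to 0.18. In LGR5- cells *Gclm* ran from −0.40 to 0.02, *Txnrd1* −0.55 to 0.05, *G6pdx* −0.40 to 0.13, *Bach1* −0.34 to 0.16, *Slc7a11* −0.33 to 0.11, *Gpx4* −0.03 to 0.13 and *Mafk* −0.19 to 0.40. Between untreated populations *Gclm* ran from −0.01 to 0.33, *Gsr* −0.20 to 0.28, *Gpx2* −0.06 to 0.22, *Gsta4* −0.19 to 0.15, *Txnrd1* −0.13 to 0.28, *Srxn1* −0.26 to 0.01, *Nqo1* −0.27 to 0.05 and *G6pdx* −0.20 to 0.33. Between treated ones *Gpx2* ran from −0.03 to 0.16, *Gstm1* −0.09 to 0.54 and *Nqo1* −0.32 to 0.74, and the interaction of *Gclm* −0.06 to 0.36, *Gpx2* −0.16 to 0.13, *Gstm1* −0.29 to 0.34 and *Nqo1* −0.23 to 0.83.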

Other observations

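Of 8 heme and iron genes, which include further NRF2 targets, none rose after 5-FU, where 9.66% of all genes rose in LGR5+ and 8.30% in LGR5- cells. *Blvrb*, a biliverdin reductase, fell in LGR5+ cells from 141, 180 and 167 CPM to 118, 68.5 and 88.8 CPM (log2 fold change −0.83 ± 0.23, edgeR adjusted *P* = 0.021), a call lost without untreated replicate 2 (0.0782) or 3 (0.0706) or treated replicate 2 (0.125) or 3 (0.0867). It was not called in LGR5- cells (−0.38 ± 0.22, adjusted *P* = 0.287). Heme oxygenase 1, *Hmox1*, held 22.2, 21.3 and 22.6 CPM in untreated and 31.5, 18.5 and 20.3 CPM in treated LGR5+ cells (0.09 ± 0.24, edgeR adjusted *P* = 0.851), and it showed −0.33 ± 0.25 in LGR5- cells (adjusted *P* = 0.407). Treated replicate 1 was above the untreated range in LGR5+ cells and the other 2 libraries were below it.

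Of 5 tested transporters that export glutathione conjugates, *Abcc3* rose in LGR5+ cells (1.14 ± 0.31, edgeR adjusted *P* = 0.02) and in LGR5- cells (1.27 ± 0.31, adjusted *P* = 0.0134), from 1.86 to 3.74 CPM over the untreated to 3.98 to 8.26 CPM over the treated libraries. Its call was lost in LGR5+ cells without untreated replicate 1 (0.0803) or 3 (0.0729) or treated replicate 1 (0.0854) or 3 (0.0525), and in LGR5- cells without untreated replicate 2 (0.0541) or treated replicate 1 (0.0514). *Abcc4* rose in LGR5- cells (0.64 ± 0.19, adjusted *P* = 0.037) and did not pass the test in LGR5+ cells (0.52 ± 0.19, adjusted *P* = 0.0809), and its call held only without treated replicate 1 (0.0535 to 0.0994 in the others). Without replicate 3 of both LGR5- groups *Abcc4* was 0.39 (0.181). Of 3 tested superoxide dismutases and catalase, *Sod1* fell in LGR5+ cells (−0.53 ± 0.17, edgeR adjusted *P* = 0.045), a call lost in all 6 fits that left out 1 library (0.0588 to 0.165). Of 6 antioxidant genes under p53, *Trp53inp1* rose in both populations (2.21 ± 0.22 and 2.2 ± 0.23, edgeR adjusted *P* = 1.7e-05 and 3.3e-05), *Sesn2* rose (1.07 ± 0.28 and 0.89 ± 0.28) and the mitochondrial glutaminase *Gls2* fell (−1.61 ± 0.46 and −1.52 ± 0.46). The *Sesn2* call was lost in LGR5+ cells without untreated replicate 1 (0.0571) or 3 (0.0894) or treated replicate 2 (0.0889), and in LGR5- cells, where its groups overlapped, it held only without treated replicate 3 (0.0579 to 0.218 in the others). The *Gls2* call was lost without untreated replicate 1 (0.0593 and 0.0649 in the LGR5+ and LGR5- fits) or 3 (0.0958 and 0.0837) or treated replicate 2 (0.126 and 0.126) or 3 (0.132 and 0.138), and without replicate 3 of both LGR5- groups *Gls2* was −0.89 (0.198) in LGR5- cells.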
